A study of Mus musculus with 8 samples.

Results

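The genes described here code for the secreted and membrane-bound proteases that cut extracellular matrix, and for their inhibitors and relatives, in mouse first molar enamel organs. They were taken by name from the protein-coding rows of the count table, as every Mmp gene except Mmp20, Timp1 to Timp4, every gene whose name begins with Adamts, Reck and Papln. This gave 51 of the 54532 genes in the table, made up of 21 matrix metalloproteinases (MMPs), 5 MMP inhibitors, 19 ADAMTS proteases, 5 ADAMTS-like genes and Papln. Papln was selected on its large fall at P12 in these same libraries, so its values are given as a description with no test. Mmp1a was listed as a polymorphic pseudogene in the table and was not a member, with 35 counts over the P5 libraries and 3 over the P12 libraries.

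MMPs are zinc proteases that are made as inactive precursors and together can cut most proteins of the extracellular matrix, among them fibrillar collagen, denatured collagen and proteoglycans. TIMPs bind the active site of MMPs and block them, and Reck is an inhibitor anchored to the cell membrane. ADAMTS proteases are secreted, carry thrombospondin repeats, and act on large proteoglycans, procollagen and microfibril proteins, while ADAMTS-like proteins and papilin, the product of Papln, share those repeats but have no protease domain. In forming enamel, the matrix is secreted first and then removed by proteases while the mineral hardens, a process in which Mmp20 and the serine protease Klk4 are the best known enzymes.

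RNA-seq libraries were made from enamel organs of first molars of wt C57BL/6 pups at P5 (postnatal day 5, secretory stage) and P12 (postnatal day 12, maturation stage). Pulp chambers had been cleared of soft tissue, each library came from a pool of 5 pups, and polyadenylated RNA was captured. There were 4 pools at each age, numbered 1, 3, 4 and 5 at P5 and 1 to 4 at P12, with no other treatment or allele in either group. The question asked of the data was which of these genes differed in RNA level between the secretory and the maturation stage. Levels are given as normalized counts, which are read counts corrected for effective library size and put on the scale of the mean library. They are listed in the order P5 libraries 1, 3, 4 and 5, then P12 libraries 1, 2, 3 and 4, and means are followed by SD with n = 4 pools.

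Total counts ranged from 16574548 to 20262601 in the P5 libraries and from 17588152 to 22013456 in those of P12. A floor of 3 counts lay between 0.136 and 0.181 CPM. The label of the tissue was checked with 6 ameloblast genes, all of which were detected. The enamel matrix genes Amelx, Ambn and Enam were lower at P12 (log2 fold changes of -5.74, -2.57 and -9.95), and the maturation stage genes Klk4, Amtn and Odam were higher (3.22, 1.86 and 4.57). P5 library 5 had lower levels of these maturation stage genes (703, 5149 and 6497 normalized counts) than the other P5 libraries. Those had 2586 to 3589 for Klk4, 16356 to 19787 for Amtn and 15868 to 18305 for Odam. Markers of other cells were present at both ages, some at high levels. Col1a1 had 620261 ± 60095 normalized counts at P5 and 488824 ± 49214 at P12, and the odontoblast gene Dspp 158556 ± 23095 and 167051 ± 12929. Values of the marker lists stand beside the results below. In such bulk libraries, fewer cells of a type and less RNA per cell cannot be told apart. P12 library 4 stood apart from the other P12 libraries in oral epithelial keratins, whose summed level over Krt13, Krt4, Krt6b and Krt24 was 3152 there and 19253 to 30595 in P12 libraries 1 to 3, against 438 to 845 at P5.

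Most of the matrix protease genes that were detected were higher at P12. Of the 50 members other than Papln, 43 passed the filter on low counts, and 26 of these were higher at P12 and 9 lower in the quasi-likelihood test of edgeR, adjusted by Benjamini-Hochberg over 16440 genes (adjusted p under 0.05, called the edgeR adjusted p from here on). Over all genes tested, 28.8% were higher and 28.4% lower. Their median log2 fold change was 0.99, beside 0.01 over all genes. A rise of at least 1 log2 unit was called in 21 of the 43 (11.3% of all genes), and a fall of at least 1 log2 unit in 4, near the share of all genes (10.2%). All P12 libraries lay above all P5 libraries in 26 members (26.0% of all genes) and below them in 7 (26.6% of all genes), and in 10 members the ages overlapped. A two-sided exact permutation test over libraries, on log2 normalized counts with 1 added, gave the smallest p that 4 against 4 allow (0.0286) in each member without overlap, and 0.0571 in Mmp17 and Adamts12.

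The number of members called lower depended on the scaling. With scaling by total count, which moved the median over all genes to 0.38 on the log2 scale, 27 members were higher and 4 lower, and all genes split into 8885 higher and 2330 lower in place of 4735 and 4676. Mmp24, Adamtsl1, Adamts19 and Adamts9 were the members that were also lower by total count. Without P12 library 4 the counts were 26 higher and 9 lower. The plot of log2 fold changes shows each of the 43 members and Papln by family.

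**Figure D1:**
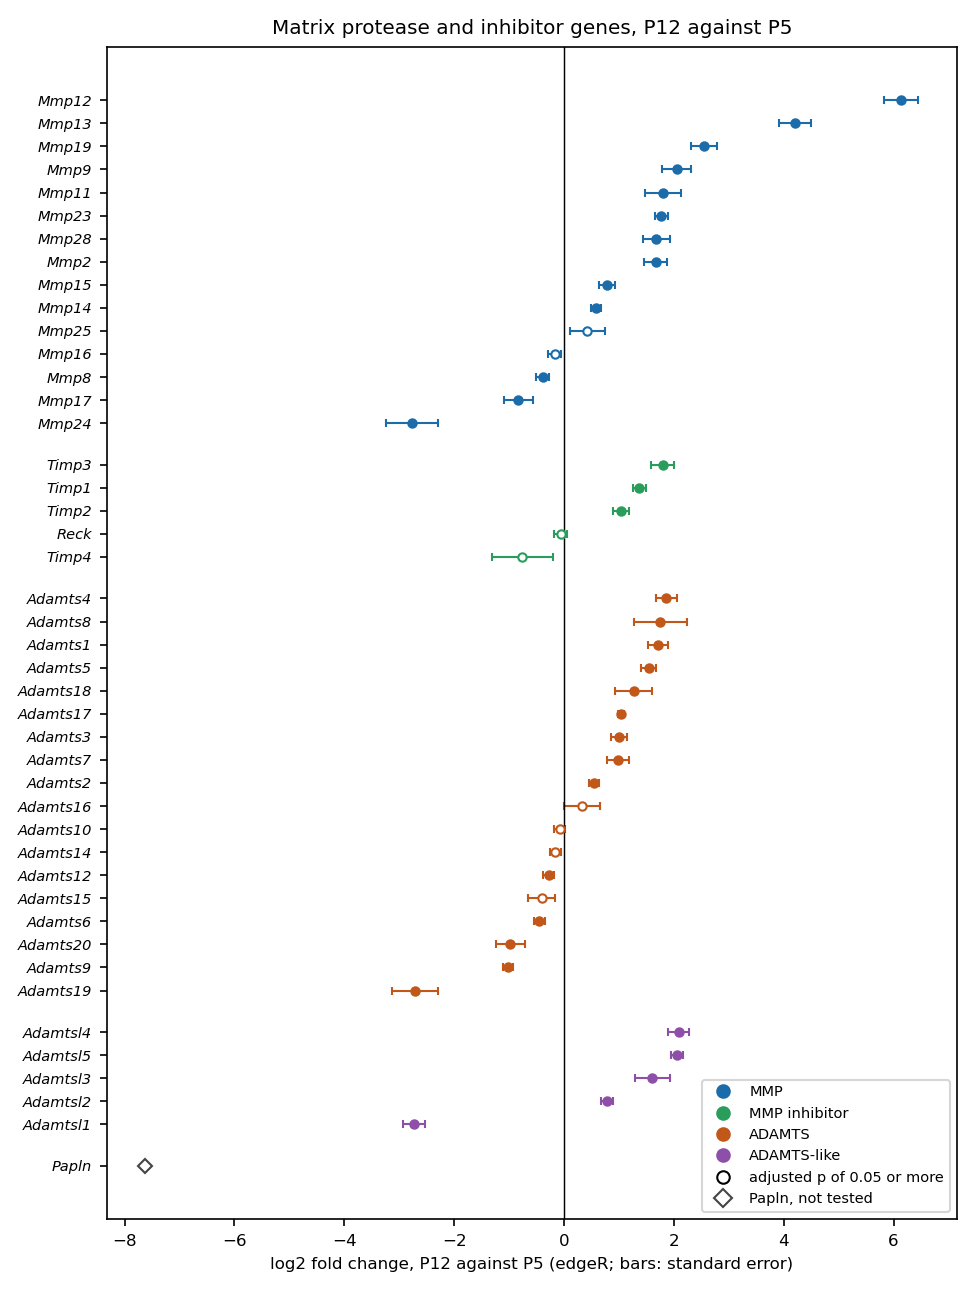
Log2 fold change of each member that passed the filter, P12 against P5, grouped by family. Points are edgeR estimates from 4 pools at each age, bars are standard errors, open circles did not reach an adjusted p under 0.05, and the diamond is Papln, which was not tested. Mmp12 lies farthest to the right at 6.14 and Papln farthest to the left at -7.62.

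Papln had by far the highest RNA level of the members at P5 and was among the most abundant RNAs of the P5 libraries. Normalized counts were 90687, 93380, 92202 and 96913 in the P5 libraries, against 464, 375, 575 and 483 in the P12 libraries. Every P5 library was high and every P12 library low, with a spread of a few per cent around the P5 mean. The means were 93295 ± 2652 and 474 ± 82.0, a 197-fold difference or a log2 fold change of -7.62, which is the value that selected the gene. Papln took 0.416% to 0.452% of the reads of each P5 library, and 0.00228% to 0.00344% of those of each P12 library. It ranked 11 among all genes of the table by mean normalized count at P5 and 6674 at P12. Only 8 genes had a lower log2 fold change. Per kilobase of gene length, its level of 16556 ± 471 normalized counts at P5 was the highest among the members, ahead of Mmp14 at 1430 ± 51.3, and its level at P12 of 84.2 ± 14.6 placed it at rank 20.

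Papln lies at chr12:83763634-83792382 on the + strand of GRCm38. The 250 bases before its RefSeq start (GRCm38.p6, chr12:83763384-83763633) are shown because no other member changed as much, and they hold none of the 3 motifs searched here (AP-1, RUNX and TATA box, spelled out with the MMP genes):
Papln: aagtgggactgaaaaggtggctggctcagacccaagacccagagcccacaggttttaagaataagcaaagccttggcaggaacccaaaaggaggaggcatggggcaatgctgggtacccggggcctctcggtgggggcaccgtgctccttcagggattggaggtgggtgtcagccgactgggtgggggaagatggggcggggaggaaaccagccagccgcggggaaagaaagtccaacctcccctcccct

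Among the collagenases, the MMPs that cut intact fibrillar collagen, Mmp13 rose and Mmp8 fell. Mmp13, the main collagenase of rodent bone and growth plate (chr9:7272514-7283331), had 208, 215, 285 and 164 normalized counts at P5 and 5195, 5425, 3141 and 2309 at P12. The ages were far apart, and P12 libraries 3 and 4 were lower than 1 and 2. The mean went from 218 ± 49.9 to 4018 ± 1533, a log2 fold change of 4.21 (SE 0.29, edgeR adjusted p = 3.7e-07), and it was 4.40 without P12 library 4. Mmp8, named for neutrophils as neutrophil collagenase, had 207, 201, 166 and 200 at P5 and 160, 157, 133 and 143 at P12. Its P12 libraries all lay below its P5 libraries, by a small margin between P5 library 4 and P12 library 1. In log2 terms the change was -0.39 (SE 0.12, edgeR adjusted p = 0.016). It was -0.01 with scaling by total count (edgeR adjusted p = 0.94) and -0.33 without P12 library 3 (edgeR adjusted p = 0.053). Mmp1b, a mouse relative of interstitial collagenase, was not tested, with 1 count in all 8 libraries together, and reads of its close copy Mmp1a could be split between them.

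Both gelatinases, which cut denatured collagen and basement membrane collagen, rose. Mmp9, abundant in osteoclasts and neutrophils, had 489, 366, 711 and 500 normalized counts at P5 and 2515, 2937, 1848 and 1212 at P12. The lowest P12 value, in library 4, was above the highest P5 value. This gave a log2 fold change of 2.05 (SE 0.26, edgeR adjusted p = 5.3e-05). Mmp2, made mainly by mesenchymal cells (chr8:92827291-92853420), had 1566, 1452, 1447 and 1460 at P5 and 6871, 5279, 3608 and 3079 at P12. Its P5 libraries were tightly grouped and the P12 libraries spread widely, without overlap. edgeR put the log2 difference at 1.67 (SE 0.21, edgeR adjusted p = 4.3e-05).

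The largest rise of any member was that of Mmp12, macrophage elastase (chr9:7344381-7369499). It had 6.43, 2.24, 2.64 and 4.23 normalized counts at P5 and 283, 359, 286 and 192 at P12. At P5 these were 5, 2, 2 and 4 reads, so 2 libraries lay under the floor of 3 counts, and at P12 every library had at least 191 reads. P12 differed from P5 on the log2 scale by 6.14 (SE 0.31, edgeR adjusted p = 3.7e-08), or 70.5-fold. Of its exonic bases, 2.2% are shared with Mmp1b on the opposite strand, which had 1 read in all. Mmp19, a secreted MMP with broad substrates, rose from 28.3, 24.6, 25 and 15.9 at P5 to 138, 173, 129 and 106 at P12, again with no overlap. The fitted log2 fold change was 2.55 (SE 0.23, edgeR adjusted p = 3.1e-06). Of its exonic bases, 28.3% are shared with Tmem198b and Gm47093 on the opposite strand, and whether counting used the strand is not given in the sources used here.

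The remaining secreted MMPs that passed the filter also rose, namely Mmp11 or stromelysin-3, with a log2 fold change of 1.80, and Mmp28 or epilysin, with 1.68. In Mmp11 the P12 libraries ranged from 334 in library 4 to 1220 in library 2, and the P5 libraries from 170 to 275. The stromelysins Mmp3 and Mmp10, matrilysin (Mmp7), Mmp21 and Mmp27 did not pass the filter. Their highest count in any library was 14, in Mmp10 at P12, and Mmp7 had 0 counts in all 8 libraries. With no filter on low counts, Mmp10 was called higher (log2 fold change of 2.04, SE 0.77, edgeR adjusted p = 0.044), and none of the others was. A count of 0 allows at most 3 counts, or 0.136 to 0.181 CPM, for counting error alone.

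On chromosome 9, 10 Mmp genes lie within 427072 bases, and 8 of them are members (the others are Mmp20 and Mmp1a). Their directions differed between neighbours. Over the 4 libraries of an age, Mmp13 went from 725 to 19205 counts, Mmp12 from 13 to 1311, and Mmp8 from 656 to 689 before normalization, while Mmp10 went from 7 to 42, Mmp27 from 3 to 19 and Mmp3 from 17 to 9. Promoters were examined for the letters TGANTCA, the AP-1 motif, on both strands of the 250 bases before each RefSeq start. Some members had no RefSeq promoter and were not searched, among them Mmp2, Mmp9, Mmp16, Mmp17, Mmp19, Adamts4 and Adamts5. Of 36 members with a promoter in the RefSeq table, 6 held the motif (16.7%), beside 7.82% of 27025 genes. These 6 were Mmp1b, Mmp3, Mmp7, Mmp10, Mmp12 and Mmp13, all in the chromosome 9 group. They include the pair with the largest rises and 4 genes with few or no reads at either age, so the letters were shared by members that rose and members that were barely detected.

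The 100 bases before the RefSeq start of these genes are shown for that comparison (GRCm38.p6, 5′ to 3′ on the strand of the gene, AP-1 letters in capitals). The first base of the match lies at -63 in Mmp10, -44 in Mmp12, -35 in Mmp13, -93 in Mmp1b, -46 in Mmp3 and -63 in Mmp7, counted back from the start:
Mmp12 (chr9:7347274-7347373, + strand): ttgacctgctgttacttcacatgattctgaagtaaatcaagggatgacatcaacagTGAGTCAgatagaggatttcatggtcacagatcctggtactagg
Mmp13 (chr9:7272414-7272513, + strand): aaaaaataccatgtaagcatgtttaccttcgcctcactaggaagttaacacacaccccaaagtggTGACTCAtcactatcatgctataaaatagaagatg
Mmp10 (chr9:7502242-7502341, + strand): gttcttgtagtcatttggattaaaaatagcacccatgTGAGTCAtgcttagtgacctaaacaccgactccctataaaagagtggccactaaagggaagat
Mmp1b (chr9:7388027-7388126, - strand): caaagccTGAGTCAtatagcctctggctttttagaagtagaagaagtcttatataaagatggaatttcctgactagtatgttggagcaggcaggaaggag
Mmp3 (chr9:7445722-7445821, + strand): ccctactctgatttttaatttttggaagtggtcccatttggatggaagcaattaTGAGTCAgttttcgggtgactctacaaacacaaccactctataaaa
Mmp7 (chr9:7691990-7692089, + strand): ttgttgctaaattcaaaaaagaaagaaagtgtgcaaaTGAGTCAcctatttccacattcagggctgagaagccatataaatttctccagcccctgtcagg

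In Mmp13 the AP-1 letters read TGACTCA, and in the other genes TGAGTCA, which is the same site on the opposite strand. The RUNX letters TGTGGT, searched on both strands, were in 6 of the 36 promoters (16.7%), close to the 15.9% of all genes, among them Mmp13 and Mmp14. The TATA box letters TATAAA, searched on the strand of the gene, were in 8 (22.2%) and in 8.94% of all genes. Mmp13, Mmp10, Mmp1b, Mmp3 and Mmp7 had them and Mmp12 did not. A match describes the sequence and not a bound site.

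The membrane-anchored MMPs went both ways, with 3 of 7 higher and 2 lower (28.8% and 28.4% of all genes) and 2 not passing the test. Mmp14 (MT1-MMP), a collagenase of the cell surface that also activates the precursor of Mmp2 (chr14:54431612-54445364), had 8962, 8474, 8249 and 8417 normalized counts at P5 and 14441, 13296, 12180 and 11128 at P12. No P12 library was as low as any P5 library. The change amounted to a log2 value of 0.58 (SE 0.09, edgeR adjusted p = 0.00016), a modest rise. Among the member MMPs, which leave out Mmp20, Mmp14 had the highest level per kilobase at both ages. Mmp23 rose from between 308 and 480 to between 1253 and 1315, a log2 fold change of 1.77, and the P12 libraries lay close together. Mmp15 (MT2-MMP) rose by 0.78. Mmp16 (MT3-MMP) had a log2 fold change of -0.17 and Mmp25 (MT6-MMP) of 0.42, and neither passed the test.

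Mmp24 (MT5-MMP), best known from the nervous system, fell. It had 36.0, 60.4, 68.5 and 80.4 normalized counts at P5 and 3.67, 3.38, 12 and 18.1 at P12. No library overlapped, and P12 library 4 was the highest at its age. The log2 fold change was -2.77 (SE 0.47, edgeR adjusted p = 0.0004), and 13.6% of its exonic bases are shared with BC029722 on the opposite strand. Mmp17 (MT4-MMP), attached to the membrane by a lipid anchor, had 36.0, 59.3, 59.3 and 76.2 at P5 and 42.5, 25.3, 31.5 and 30.1 at P12. Here P5 library 1 was below P12 library 1, so the ages overlapped. Its log2 fold change of -0.83 (SE 0.27, edgeR adjusted p = 0.019) did not hold without P5 library 5 (-0.67, edgeR adjusted p = 0.065), without P12 library 2 (-0.73, edgeR adjusted p = 0.056) or with scaling by total count (-0.46, edgeR adjusted p = 0.16).

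Of the MMP inhibitors, 3 TIMPs rose (28.8% of all genes were higher) and the other members did not pass the test. Timp1, a soluble inhibitor of most secreted MMPs, had 297, 334, 286 and 330 normalized counts at P5 and 863, 972, 751 and 642 at P12. The ages were well separated. In log2 terms the change was 1.37 (SE 0.12, edgeR adjusted p = 3.1e-06). Timp2, which also links the Mmp2 precursor to Mmp14, had 2326, 2114, 2196 and 2236 at P5 and 5907, 5017, 3811 and 3454 at P12. Its P12 values were all higher and were lowest in library 4. This gave a log2 fold change of 1.04 (SE 0.14, edgeR adjusted p = 0.0001).

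Timp3, which is held in the matrix and also inhibits ADAMTS proteases, went from 896, 794, 933 and 910 at P5 to 2265, 2443, 2793 and 4824 at P12. In contrast to Timp1 and Timp2, its highest value was in P12 library 4. edgeR put the log2 difference at 1.80 (SE 0.21, edgeR adjusted p = 2.4e-05), and 1.5 without that library. Timp3 shares 21.3% of its exonic bases with Syn3 on the opposite strand. Timp4 was low, at 5.14, 15.7, 15.8 and 11.6 at P5 and 3.67, 4.22, 4.63 and 17.1 at P12. Library 4 alone lay far above the other P12 libraries, and the ages overlapped. P12 differed from P5 on the log2 scale by -0.76 (SE 0.55, edgeR adjusted p = 0.26), and it was -1.52 without P12 library 4 (edgeR adjusted p = 0.017). Reck, the membrane-anchored inhibitor, had 919, 818, 717 and 793 at P5 and 955, 812, 685 and 658 at P12. Its ages overlapped, with a log2 fold change of -0.06 (SE 0.12, edgeR adjusted p = 0.69), which was 0.32 with scaling by total count.

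The ADAMTS proteases that cut large proteoglycans such as aggrecan and versican numbered 7. Of these, 4 rose and 2 fell (28.8% and 28.4% of all genes), and Adamts15 did not pass the test (log2 fold change of -0.41). Adamts4, an aggrecanase, had 93.8, 107, 84.4 and 86.8 normalized counts at P5 and 436, 392, 284 and 240 at P12. All P12 libraries were higher. The fitted log2 fold change was 1.86 (SE 0.19, edgeR adjusted p = 9.7e-06). Adamts5, the other main aggrecanase, had 103, 145, 136 and 116 at P5 and 427, 375, 358 and 298 at P12, with no overlap. The change amounted to a log2 value of 1.54 (SE 0.14, edgeR adjusted p = 3.6e-06).

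Adamts1, which cuts aggrecan and versican, had 305, 262, 366 and 216 normalized counts at P5 and 1290, 776, 778 and 887 at P12. Library 1 was the highest at P12 and the ages did not overlap. The log2 fold change was 1.71 (SE 0.19, edgeR adjusted p = 1.8e-05). Adamts8 rose from 10.3, 4.47, 1.32 and 19.1 at P5 to 35.2, 29.5, 25 and 33.1 at P12. Its P5 values rest on 8, 4, 1 and 18 reads and were uneven. The log2 fold change of 1.75 (SE 0.48, edgeR adjusted p = 0.0087) was 2.49 without P5 library 5, and 10.6% of its exonic bases are shared with Gm29724 on the opposite strand.

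Adamts9, a versican-cleaving protease that is widely used in development, fell. It had 3926, 3826, 3248 and 3508 normalized counts at P5 and 1966, 1656, 1575 and 1955 at P12, and no library overlapped. In log2 terms the change was -1.02 (SE 0.09, edgeR adjusted p = 3.1e-06). It shares 12% of its exonic bases with A730049H05Rik and Gm15737 on the opposite strand. Its close relative Adamts20 had 37.3, 50.3, 47.5 and 55.0 at P5 and 35.2, 21.9, 20.4 and 18.1 at P12. P5 library 1 and P12 library 1 nearly met. This gave a log2 fold change of -0.98 (SE 0.26, edgeR adjusted p = 0.0081), and -0.60 with scaling by total count (edgeR adjusted p = 0.076).

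The procollagen N-propeptidases Adamts2, Adamts3 and Adamts14 trim the amino end of fibrillar procollagens. Adamts2 had 2360, 2432, 2085 and 2302 normalized counts at P5 and 3815, 3369, 3283 and 2835 at P12. The P12 libraries were all above the P5 libraries. edgeR put the log2 difference at 0.54 (SE 0.09, edgeR adjusted p = 0.00036). Adamts3 rose by 1.0 on the log2 scale, and Adamts14, with a log2 fold change of -0.16, did not pass the test.

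Of the 8 other ADAMTS genes that were tested, 3 rose and 3 fell (28.8% and 28.4% of all genes). Adamts17, linked to fibrillin microfibrils, had 1183, 1116, 1211 and 1303 normalized counts at P5 and 2525, 2493, 2541 and 2348 at P12. Both groups were narrow and far apart. P12 differed from P5 on the log2 scale by 1.04 (SE 0.06, edgeR adjusted p = 1.5e-07). Adamts19, the closest relative of Adamts17, went the other way, from 23.1, 20.1, 43.5 and 36.0 at P5 to 3.67, 6.75, 1.85 and 6.02 at P12. All P12 libraries were low, with 2 to 8 reads each. The fitted log2 fold change was -2.72 (SE 0.42, edgeR adjusted p = 0.0002). Adamts10, a fibrillin-binding protease, had 2095, 2205, 2125 and 2549 at P5 and 2389, 2077, 2236 and 1786 at P12. Its ages overlapped, with a log2 fold change of -0.08 (SE 0.10, edgeR adjusted p = 0.49), and 0.30 with scaling by total count (edgeR adjusted p = 0.033).

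Adamts6, the closest relative of Adamts10, had 640, 644, 497 and 501 normalized counts at P5 and 436, 412, 414 and 408 at P12, without overlap. The change amounted to a log2 value of -0.45 (SE 0.10, edgeR adjusted p = 0.0023), and it was -0.08 with scaling by total count (edgeR adjusted p = 0.53). Adamts18 rose by 1.27 and Adamts7 by 0.99 on the log2 scale. Adamts12, a relative of Adamts7, was called lower at -0.28 (edgeR adjusted p = 0.024) although its ages overlapped. This call was lost without P5 library 1, P5 library 3, P12 library 3 or P12 library 4 in turn (edgeR adjusted p between 0.05 and 0.077), and the value was 0.09 with scaling by total count. Adamts16 did not pass the test (log2 fold change of 0.33), and Adamts13, the protease of von Willebrand factor, did not pass the filter, with 0 to 9 counts in a library.

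All 5 ADAMTS-like genes passed the filter, with 4 higher at P12 and 1 lower (28.8% and 28.4% of all genes). The ages overlapped in none of them, with all P12 libraries above in 4 and below in 1 (26.0% and 26.6% of all genes). Adamtsl4, a fibrillin-binding protein needed in the eye, had 81.0, 79.4, 72.5 and 91.0 normalized counts at P5 and 397, 393, 371 and 220 at P12. Library 4 was lower than the other P12 libraries and still above all P5 libraries. The log2 fold change was 2.09 (SE 0.19, edgeR adjusted p = 3.4e-06), and 2.25 without that library. Adamtsl5 had 314, 311, 299 and 285 at P5 and 1297, 1434, 1287 and 997 at P12. These groups were widely separated. In log2 terms the change was 2.05 (SE 0.11, edgeR adjusted p = 4.8e-08).

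Adamtsl3 was low, at 10.3, 11.2, 21.1 and 10.6 normalized counts at P5 and 52.1, 34.6, 42.6 and 31.1 at P12. P5 library 4 was about as far from the other P5 libraries as from the lowest P12 library. This gave a log2 fold change of 1.61 (SE 0.31, edgeR adjusted p = 0.00098). Adamtsl2, which binds fibrillin and the TGF-beta binding protein Ltbp1, had 1010, 1306, 861 and 1022 at P5 and 1909, 1844, 1800 and 1704 at P12. Its ages did not overlap. edgeR put the log2 difference at 0.79 (SE 0.11, edgeR adjusted p = 8.1e-05). Adamtsl1 (punctin) was the ADAMTS-like gene that fell, from 265, 269, 243 and 319 at P5 to 49.9, 23.6, 42.6 and 48.2 at P12. Each P12 library was far below each P5 library. P12 differed from P5 on the log2 scale by -2.74 (SE 0.20, edgeR adjusted p = 7.6e-07).

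**Figure D2:**
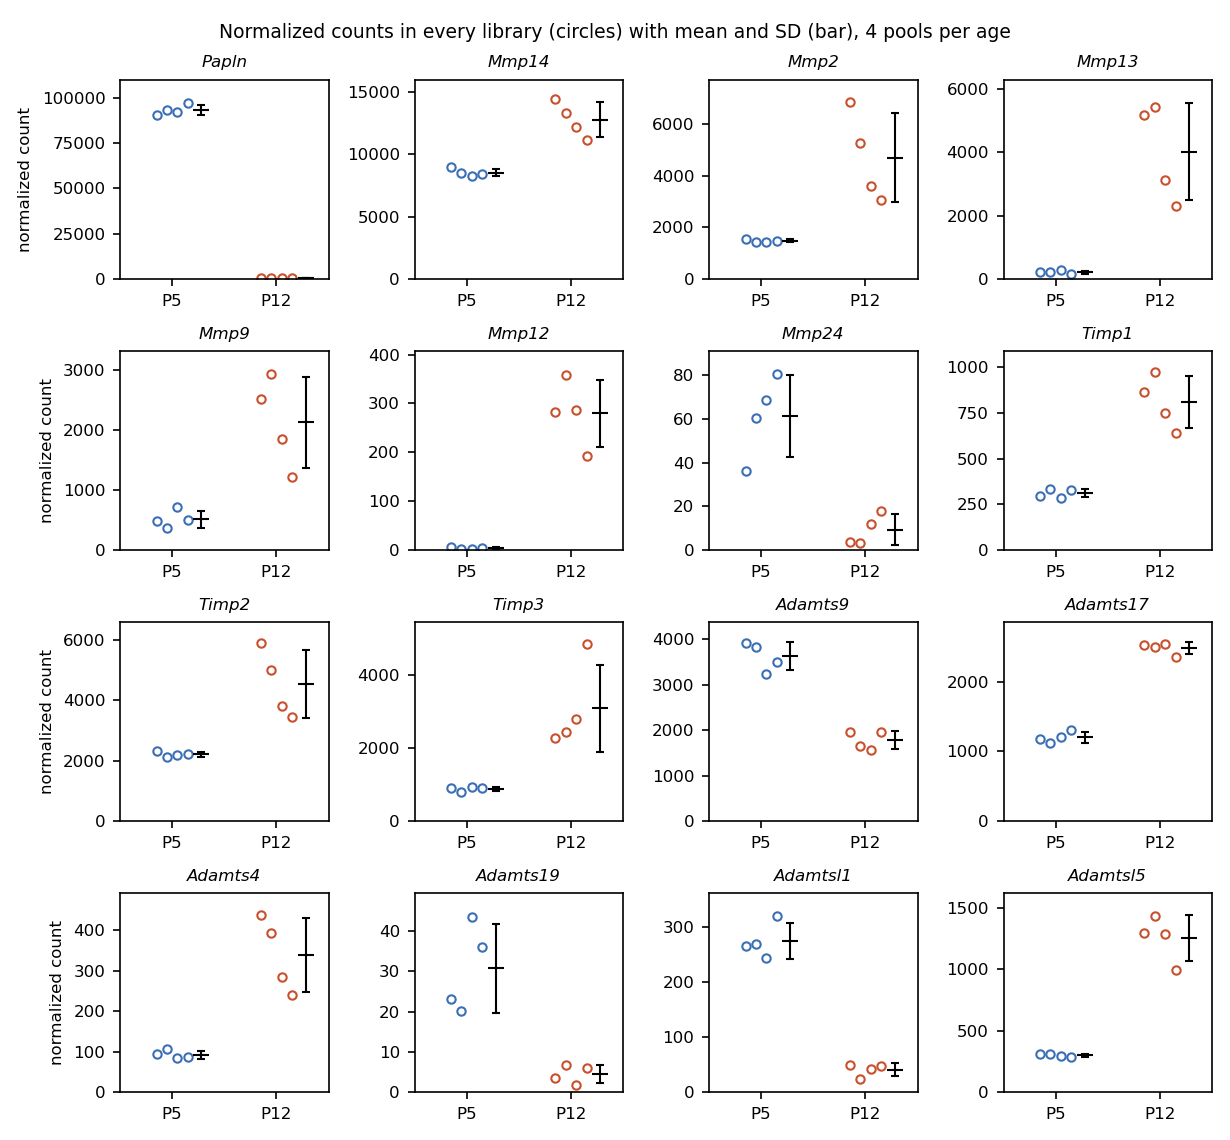
Normalized counts of 16 members in each library, with P5 (blue circles) and P12 (red circles) from left to right in the order of their library numbers. Each axis starts at 0, and black marks give the mean and SD of 4 pools. Papln, Mmp24, Adamts9, Adamts19 and Adamtsl1 are lower in every P12 library than in every P5 library, and the other 11 genes are higher.

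Per kilobase of gene length, which allows levels to be compared between genes, the summed level of the 21 MMPs was 2616 ± 48.9 normalized counts at P5 and 6895 ± 1659 at P12. That of the 4 TIMPs was 1031 ± 24.9 and 2455 ± 314. The summed level of the ADAMTS proteases was 1524 ± 49.4 and 1837 ± 184, and that of the ADAMTS-like genes 238 ± 24.9 and 583 ± 67.7. The ratio of the MMP sum to the TIMP sum was 2.54 ± 0.063 at P5 and 2.78 ± 0.361 at P12, where it ranged from 2.27 in library 4 to 3.05 in library 1. The P12 range of the ratio enclosed the P5 values of 2.46 to 2.60. The MMP sum leaves out Mmp20, which had 86757 counts over the P5 libraries and 19995 over those of P12, before normalization. These sums cover members chosen with earlier results known and are given with no test.

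The make-up of the MMP sum differed between the ages. Mmp14 made up 54.7% ± 1.23 of it at P5 and 31.9% ± 4.59 at P12, and Mmp13 3.12% ± 0.723 and 21.2% ± 3.47. At P12 the order of levels per kilobase was Mmp14 (2141 ± 240), Mmp13 (1503 ± 574), Mmp2 (1397 ± 510), Timp2 (1167 ± 289), Timp1 (909 ± 160) and Mmp9 (601 ± 214). The SDs of each neighbouring pair overlapped, but levels of genes in the same library are paired. Within each P12 library this order held for all neighbouring pairs except Mmp13 and Mmp2, which changed places between libraries. At P5 the order after Papln was Mmp14 (1430 ± 51.3), Timp2 (569 ± 22.6), Mmp2 (439 ± 16.8) and Timp1 (351 ± 27.0), with Adamts10 next to Timp1 and Mmp13 at rank 17. Adamts10 lay at 411 ± 38.3 with the length in the table (5453 bases), above Timp1, and at 272 ± 25.3 with its exonic length in GENCODE M21 (8254 bases), below it. At P12 it lay at 389 ± 47.2 or 257 ± 31.2, which ranks it 1 or 3 among the ADAMTS genes. The GENCODE length, tried after the data were seen, differs from that of the table for 2 members, Adamts10 and Adamts19, and gives an ADAMTS sum of 1380 ± 45.7 at P5 and 1704 ± 170 at P12. Within the ADAMTS sum by table length, Adamts9 made up 15.8% ± 1.03 at P5 and 6.51% ± 0.975 at P12, and Adamts17 10.2% ± 0.706 and 17.5% ± 1.27.

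**Figure D3:**
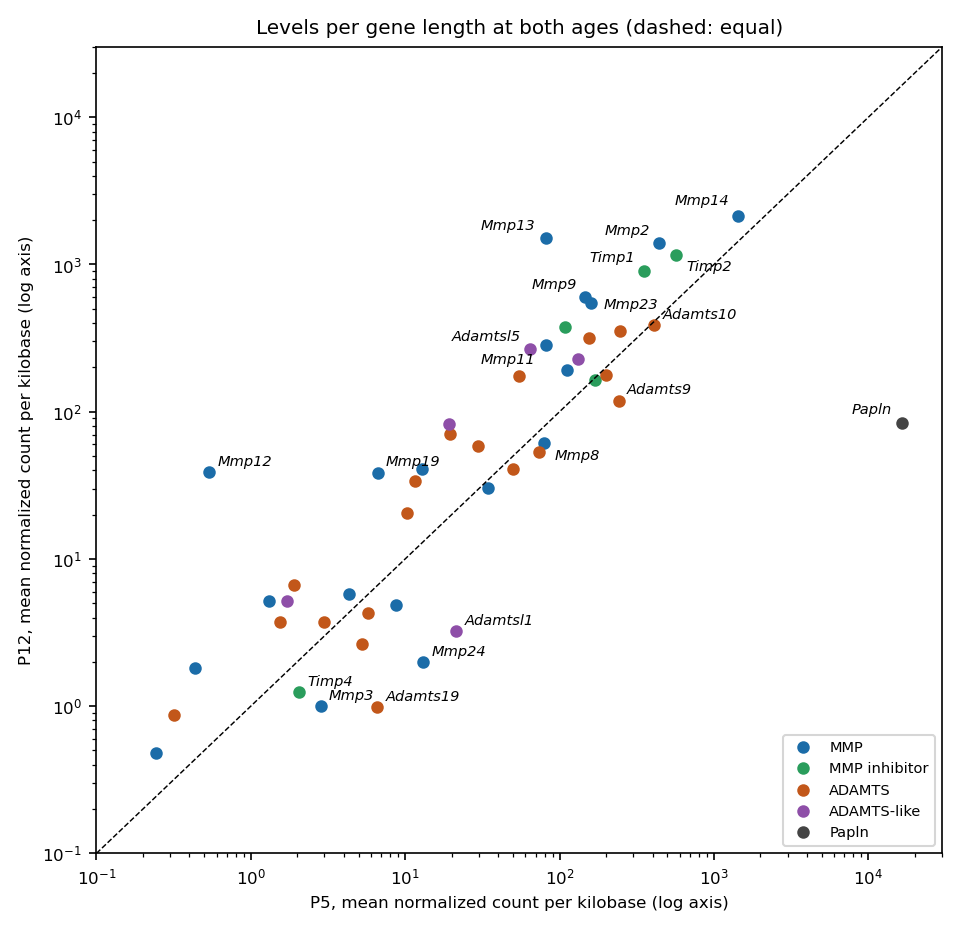
Mean normalized count per kilobase of gene length at P5 (horizontal log axis) and P12 (vertical log axis) for the members detected at both ages, coloured by family, over 4 pools at each age. Points above the dashed line are higher at P12, such as Mmp13 (81.5 at P5 and 1503 at P12), and Papln lies far below it (16556 and 84.2).

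Among the P12 libraries, the members that rose tended to be lowest in library 4. Of the 26 members higher at P12, 21 had their lowest P12 value there (80.8%), beside 44.3% of all 4735 genes that were higher, and 13 had their highest value in library 1 (50.0%, beside 26.1%). The exceptions were Timp3 and Adamts3, which were highest in library 4, and Adamts1, Adamts8 and Mmp23.

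Markers of other cells differed between the same libraries. For the osteoclast list, 5 of 5 tested genes were higher at P12 (Calcr did not pass the filter), and the sum of the list was 1044 to 1691 at P5 and 6382, 7945, 4971 and 3179 in P12 libraries 1 to 4. Calcr went from 11.1 ± 3.70 to 4.48 ± 3.27. The oral epithelial list of 4 keratins, all higher, had sums of 25044, 30595, 19253 and 3152 at P12. Of 5 macrophage genes 4 were higher (960 to 1273 at P5, 1385 to 1825 at P12), and of 6 neutrophil genes 4 were higher (1625 to 2147 and 2563 to 3391). The osteoclast, oral epithelial and macrophage sums ran from high to low in P12 libraries 2, 1, 3 and 4, as did Mmp9 and Mmp13. Within these lists, Acp5, Ctsk, Krt13, Krt4, Krt6b, Csf1r and C1qa had this order. Oscar, Calcr, Ocstamp, Dcstamp, Krt24, Cd68, Adgre1 and Ptprc did not. Of the other members, Mmp11, Mmp19, Mmp28, Timp1 and Adamtsl5 had this order as well. Mmp12 did not, with 283 in library 1 and 286 in library 3. The share of all genes with this order was not counted. Of the 4735 genes higher at P12, 32.4% were highest in library 2 and 44.3% were lowest in library 4. None of the genes of these 4 lists was at 0 at either age. The part of these cells in the levels of Mmp9, Mmp12, Mmp13, Mmp8 or any other member was not tested.

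The vessel lists rose with little difference between P12 libraries. All 5 endothelial genes were higher (2452 to 3064 at P5, 4832 to 5190 at P12), as were all 4 pericyte genes (3234 to 3817 and 8888 to 10071). Of the 6 mesenchymal genes 2 were higher and 3 lower (879439 to 1060915 and 704001 to 899162). Most of this sum was Col1a1 and Col1a2 (620261 ± 60095 and 357161 ± 21578 at P5). The 2 higher genes were Lum (9936, 9219, 6518 and 6372 in P12 libraries 1 to 4) and Twist1 (694, 552, 406 and 362). The 3 lower genes were Pdgfra, Dcn and Col1a2 (log2 fold changes of -0.99, -0.49 and -0.36), and the median of the list was -0.35. Among the P12 libraries, each of these lower genes was also highest in library 1 and lowest in library 4. Of the 6 odontoblast and osteoblast genes 2 were higher and 1 lower (162827 to 215267 and 189487 to 222537). Most of this sum was Dspp (158556 ± 23095 at P5). Ibsp rose by 1.77 on the log2 scale (5834, 5645, 2972 and 2485 in P12 libraries 1 to 4) and Sp7 by 0.43 (3307, 2858, 3050 and 2575). Dmp1 was the lower one, at -0.42. The 6 ameloblast genes, 3 higher and 3 lower, summed to 4954509 to 5589787 at P5 and to 575025, 686033, 866999 and 1070563 in P12 libraries 1 to 4, so that library 4 was the highest. Of 4 cartilage genes, 3 were higher (314 to 444 and 478 to 891) and Matn1 was at 0 in all libraries. Of 4 muscle genes, 3 were lower (510 to 866 and 229 to 297) and Myh3 did not pass the filter. The part of these lists in the members' levels was not tested.

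**Figure D4:**
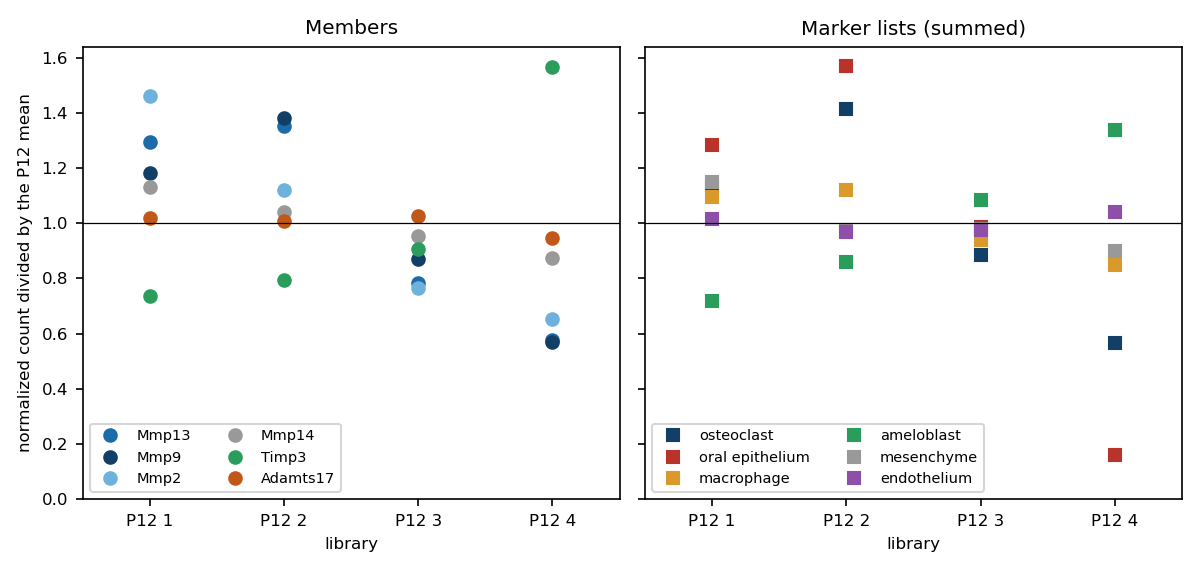
Normalized counts in the 4 P12 libraries divided by the P12 mean, for 6 members (left) and for 6 summed marker lists (right), 1 point for each library and gene or list, with a line at 1. Mmp13, Mmp9 and Mmp2 are lowest in library 4, as are the osteoclast and oral epithelial lists, while Timp3 and the ameloblast list are highest there.

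Other genes of matrix turnover were examined in 4 lists, which were chosen with earlier results of these data known. The shares to set beside their counts are those of all genes, 28.8% higher and 28.4% lower. Of the ADAM membrane proteases, which release proteins from the cell surface, 6 of 8 tested were higher, 1 was lower and Adam17 did not pass the test. Adam10 was the lower one, at 4888 ± 166 normalized counts at P5 and 1938 ± 143 at P12 (log2 fold change of -1.34, SE 0.07), and the rises ranged from 0.63 in Adam19 to 1.84 in Adam8. Their median log2 fold change was 1.10.

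Of 17 tested matrix substrates, 7 were higher and 5 lower (28.8% and 28.4% of all genes), with a median log2 fold change of 0.08. Col3a1, a fibrillar collagen of soft connective tissue, went from 4414 ± 235 to 54909 ± 25880 normalized counts (log2 fold change of 3.64, SE 0.29). Among the proteoglycans cut by the ADAMTS proteases above, versican (Vcan, -1.38), brevican (Bcan, -1.22) and neurocan (Ncan, -3.56) were lower and aggrecan (Acan, 1.72) was higher. Acan was rare, at 15.2 ± 7.06 normalized counts at P5 and 50.7 ± 21.3 at P12, while Vcan went from 3026 ± 433 to 1165 ± 150.

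Of 12 activators, other inhibitors and uptake receptors, 7 were higher and Plaur, the urokinase receptor, was lower (-0.77), with a median of 0.59. Plasminogen (Plg), the precursor of plasmin, which activates several MMPs, went from 2.17 ± 2.18 to 34.5 ± 2.82 normalized counts. Its activator Plat (log2 fold change of 1.78) and the proprotein convertase Pcsk6 (1.89) were both higher. Of the 4 procollagen and astacin proteases and enhancers that were tested, Bmp1, the procollagen C-proteinase, rose from 4897 ± 179 to 9784 ± 512 (log2 fold change of 1.0, SE 0.07). Its enhancers Pcolce (-0.44) and Pcolce2 (-2.09) were lower, and the median of the list was -0.39.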

How the data were processed

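Per gene, the authors deposited read counts as whole numbers, without normalization, with gene names, coordinates and lengths. The submitters' processing notes name CASAVA and the build mm39, whereas 53585 of the table's 54532 identifiers have their GENCODE M21 (GRCm38) coordinates, and GRCm38 is used here. The aligner, the counting program and its use of strand are not given in the sources used here. Whether the pools were separate litters is not stated, so that p-values measure the spread between pools.

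Columns were assigned to libraries by their titles. Counts were tested with R 4.3.3 and edgeR 4.0.16 (filterByExpr, TMM, glmQLFit and glmQLFTest, no covariate, Benjamini-Hochberg over 16440 genes, threshold 0.05). DESeq2 1.42.0 and limma-voom (limma 3.58.1), other scalings and filters, left-out libraries and a block on the replicate number were alternatives. The test scripts were first tried on simulated data. Within each age, every pair of libraries (12 in all) differed beyond sampling noise (chi-square per degree of freedom of 4.76 to 74.6). Floors cover counting error only, since reads carried no molecular identifiers.

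The members, gene lists and marker lists (ADAM proteases, matrix substrates, activators, procollagen proteases and 11 cell types) were chosen with earlier results of these data known. A gene of the activator list is not reported here and was left out of its counts. Papln, Reck and the TIMPs were named with all values, as were the 4 largest rises and 4 largest falls of each family among called genes and the 3 highest levels per kilobase. Promoters came from RefSeq (GRCm38.p6), which matched 36 of 51 members. GENCODE M21 also gave the exonic bases that genes share. Plots used matplotlib 3.10.9 and summaries used pandas 2.3.3, numpy 2.4.6 and scipy 1.17.1.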

Additional observations from a re-analysis of the deposited data

Results flagged for a closer look

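In 5 of 88 combinations of a gene and an age, 1 library lay apart from the other 3 by Dixon's criterion, where chance alone gives about 4.4 of 88. Adamtsl3 had 21.1 normalized counts in P5 library 4 and 10.3 to 11.2 in the other P5 libraries. Mmp2 had 1566 in P5 library 1 and 1447 to 1460 in the others, and Mmp8 had 166 in P5 library 4 and 200 to 207 in the others. In P12 library 4, Adamtsl4 was low at 220, with 371 to 397 in the other P12 libraries, and Timp4 was high at 17.1, with 3.67 to 4.63 in the others.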

How the results depend on the processing

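Of 30 named members other than Papln, 23 kept their direction and their side of the threshold in every alternative that gave a value. Adamts20, Adamts6, Mmp17 and Mmp8 lost their call in at least 1 alternative, and Timp4 gained one without P12 library 4. Adamts10 and Reck, which were not called in the main test, changed sign. Adamts10 was 0.30 with scaling by total count, where it was called higher (edgeR adjusted p = 0.033). It was 0.06 without P5 library 5 and P12 library 4. Reck was 0.32 and 0.00 in these 2 alternatives and -0.18 to 0.01 with 1 library left out. Members called lower numbered 4 with scaling by total count, and also 4 where the absolute log2 fold change had to reach 1. Papln was -7.25 on the log2 scale by total count. The cause was not tested. With 1 library left out, 26 members were higher throughout and 7 to 9 lower.

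The labels give 3 numbers at both ages, but same-numbered libraries did not deviate together (correlations of 0.045, 0.005 and -0.036). With these numbers as a replicate block over 6 libraries, 26 members were higher and 6 lower, beside 26 and 7 in the same libraries unblocked, and Papln was at -7.51. Adamts20, Mmp8 and Mmp17 were not called in the blocked fit (edgeR adjusted p of 0.082, 0.066 and 0.22), beside 0.057, 0.049 and 0.14 unblocked. With no filter on low counts 27 members were higher, Mmp10 being the added one, and for Mmp1b, Mmp21, Mmp27, Mmp3 and Adamts13 a difference was not detectable at this depth.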
